A study of Mus musculus with 2 samples.

Results

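MAP kinase phosphatases and Sprouty proteins are the feedback arm of receptor tyrosine kinase signalling, and 10 of their genes were followed here in fibrotic mouse liver: Dusp1, Dusp2, Dusp4, Dusp5, Dusp6, Dusp8, Dusp10, Dusp16, Spry2 and Spry4. They were selected by name, and their probes were those non-control probes of the array whose RefSeq transcript accession belongs to one of the 10 genes. That gave 12 probes out of 55681 non-control probes, and 10 genes out of the 20280 that could be named. Dusp8 and Dusp16 have 2 probes each and the other genes 1 each. All 12 probes have 1 spot on each array, none of these spots carried an outlier flag, and all were well above background on both arrays, so that no member was lost to a filter.

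The samples were total liver RNA of male C57BL/6 mice with liver fibrosis. One group received recombinant TSG-6 (labelled Rh_TSG-6) by the intravenous route, and the control group received PBS. TSG-6 is a protein that cells secrete during inflammation and that binds hyaluronan. RNA was taken 2 weeks after treatment, the RNA of 3 mice was mixed in equal parts in each group, and each mixture was read on a one-colour Agilent array of its own. Both groups are fibrotic: a liver without fibrosis was not analysed here, and the labels used here do not name the agent that caused the fibrosis. The comparison asks how the liver transcriptome of fibrotic mice given TSG-6 differed from that of fibrotic mice given PBS.

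Each group being 1 pool, the design has no replicates and allows no test, and every difference is that between 2 pools of 3 mice. A size rule of 2-fold takes the place of a test. Array and group cannot be told apart. In whole liver, fewer cells of a type and less RNA per cell cannot be told apart either. Signals are the linear processed signals of the scanner software, each with the software's own error estimate for the spot. That error covers the spot and not the spread between mice. Levels are log2 signals set against the 75th percentile of their array, which was a signal of 3158 for PBS and of 2476 for TSG-6. A difference is the TSG-6 level minus the PBS level. Because the reference signal differs between the arrays, the ratio of 2 raw signals is larger on the PBS side than the scaled fold. Signals of different probes are not compared with each other. The marker sums given below add levels over probes and so weigh the brightest probes most.

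MAP kinases carry signals from growth factors, cytokines and stress to the nucleus, and they are active while phosphorylated on a threonine and a tyrosine. MAP kinase phosphatases remove both phosphates and so end the signal, and many of them are transcribed in response to the pathway they switch off. Dusp1, Dusp2, Dusp4 and Dusp5 encode inducible phosphatases of the nucleus, Dusp6 encodes a cytoplasmic phosphatase selective for ERK, and Dusp8, Dusp10 and Dusp16 encode phosphatases that act mainly on the stress kinases JNK and p38. Sprouty proteins act further upstream and restrain the step from receptor to Ras and Raf. In liver several of these genes are known as early responders to injury and growth factors.

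All 4 inducible nuclear phosphatases were below the PBS pool, 3 of them by at least 2-fold, with log2 differences from -3.47 to -0.79 and a median of -1.48. Among all 10 genes, 3 were at least 2-fold lower (Dusp4, Dusp5 and Dusp1) and 0 were at least 2-fold higher in the TSG-6 pool. For comparison, 15147 genes were measured on both arrays, and of these 4.29% lay 2-fold or more below the PBS pool and 2.94% above it, 7.23% in either direction. Of the 10 genes, 8 lay below 0 and 2 above, where 6442 of the 15147 measured genes lay below 0 and 8705 above. The median difference of the 10 was -0.57, against 0.08 over all measured genes. The 10 genes were chosen with earlier results of these arrays known, Dusp5 among them, so that these counts and medians describe the set.

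Promoter sequences are shown for Dusp1, Dusp5 and Dusp8, the 3 members whose upstream region held a match to an element through which early response genes are commonly switched on. The capitals mark a cAMP response element in Dusp1 and Dusp8, the site of CREB and ATF factors, and paired CArG boxes in Dusp5, the site of serum response factor. Each line gives the 200 bases upstream of the annotated start site, 5′ to 3′ on the strand of the gene, from RefSeq on build GRCm38.p6.
Dusp1, chr17:26508473-26508672, minus strand: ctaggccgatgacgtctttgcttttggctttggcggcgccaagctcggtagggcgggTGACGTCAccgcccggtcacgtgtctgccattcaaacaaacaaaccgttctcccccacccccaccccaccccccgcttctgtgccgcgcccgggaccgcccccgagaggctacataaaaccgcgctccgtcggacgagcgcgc
Dusp5, chr19:53528945-53529144, plus strand: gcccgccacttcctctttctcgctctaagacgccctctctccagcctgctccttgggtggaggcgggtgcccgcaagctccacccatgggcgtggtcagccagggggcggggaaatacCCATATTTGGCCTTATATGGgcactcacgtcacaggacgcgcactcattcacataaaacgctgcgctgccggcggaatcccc
Dusp8, chr7:142095285-142095484, minus strand: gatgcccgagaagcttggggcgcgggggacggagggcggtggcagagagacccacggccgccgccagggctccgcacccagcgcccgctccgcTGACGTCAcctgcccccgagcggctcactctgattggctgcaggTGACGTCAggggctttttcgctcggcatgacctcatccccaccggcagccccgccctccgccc

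Promoters of 8 of the 10 genes were in the RefSeq table used, Dusp4 and Spry4 being the others. The search covered 4 motifs on both strands of those 200 bases: the cAMP response element TGACGTCA, the AP-1 site TGANTCA, the ETS core CCGGAA and the CArG box. The cAMP response element was found in 2 of the 8 promoters and in 1.47% of all 32851 promoter windows of the same length. It stood in Dusp1 at positions -143 to -136 from the start site, and in Dusp8 at positions -107 to -100 and -63 to -56. The CArG box was found in 1 of the 8 promoters and in 1.18% of all windows. Its matches in Dusp5 were adjacent, at positions -82 to -73 and -72 to -63. No matches overlapped. The AP-1 site and the ETS core, present in 1800 and 3512 of all windows, had 0 matches in the 8 promoters, which says only that these letters are not in these windows. A match is a description of the sequence. Dusp1 and Dusp8 both hold the cAMP response element, and its part in their values, given below, was not tested.

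Dusp4 encodes the nuclear phosphatase MKP-2, which acts on ERK, JNK and p38. Its probe gave a signal of 598 ± 60.1 (software error, 1 spot) in the PBS pool and 42.4 ± 5.95 in the TSG-6 pool. The PBS signal was thus far above, and the TSG-6 signal near the dim end of the array. After scaling, Dusp4 was 11.1-fold lower in the TSG-6 pool, a log2 difference of -3.47 with a propagated software error of 0.25. This was rank 28 from the lowest of the 15147 measured genes and the largest difference of the 10. Its size depended on how the background was treated: with normexp background correction, which here adds an offset of 50 to every signal and so weighs most on dim ones, the log2 difference was -2.19. It stayed past 2-fold in each of the 12 alternative settings, though not all of them could change the value of a gene with 1 probe.

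Dusp5 encodes a nuclear phosphatase selective for ERK. It gave a signal of 99.8 ± 11.4 in the PBS pool and of 21.7 ± 4.71 in the TSG-6 pool. Both signals were dim, and the TSG-6 level of -6.84 was close to the lowest level called well above background on that array, -7.06. The scaled difference was 3.61-fold lower, or -1.85 ± 0.35 on the log2 scale, and ranked 158 from the lowest. With normexp correction it was -0.74, under 2-fold, and with the stricter filter on dim probes Dusp5 was not measured. Dusp5 and Dusp4 were both in the dimmest of 5 equal level groups of the measured genes, where 6.14% of 3030 genes were at least 2-fold lower and the SD of the differences was 0.69. The groups go by the mean of both arrays, so the low TSG-6 level of Dusp4 helped to place it there. Its PBS level of -2.40 lies in the range of the next group, where 8.15% of genes were at least 2-fold lower and the SD was 0.78.

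Dusp1 encodes MKP-1, the classical early response phosphatase, best known for switching off p38 and JNK after stress and inflammatory stimuli. Its signal was 5484 ± 548 in the PBS pool and 1984 ± 198 in the TSG-6 pool. It was 2.17-fold lower, a log2 difference of -1.12 ± 0.20, at rank 531 from the lowest. This is a bright probe in the middle one of the 5 level groups, where 5.12% of genes were at least 2-fold lower. It lay just past the size rule, and with the percentile taken over spots without an outlier flag it was -0.83.

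Dusp2 encodes PAC-1, a nuclear phosphatase known chiefly from lymphoid and myeloid cells. Its signal was 4053 ± 405 in the PBS pool and 1841 ± 184 in the TSG-6 pool. The scaled difference, -0.79 ± 0.20 on the log2 scale or 1.73-fold lower, did not reach 2-fold. It did so only with spike-in scaling, at -1.11. The difference was 3.86 times the propagated software error, so it exceeded the noise of the spots without bearing on the spread between mice.

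**Figure D1:**
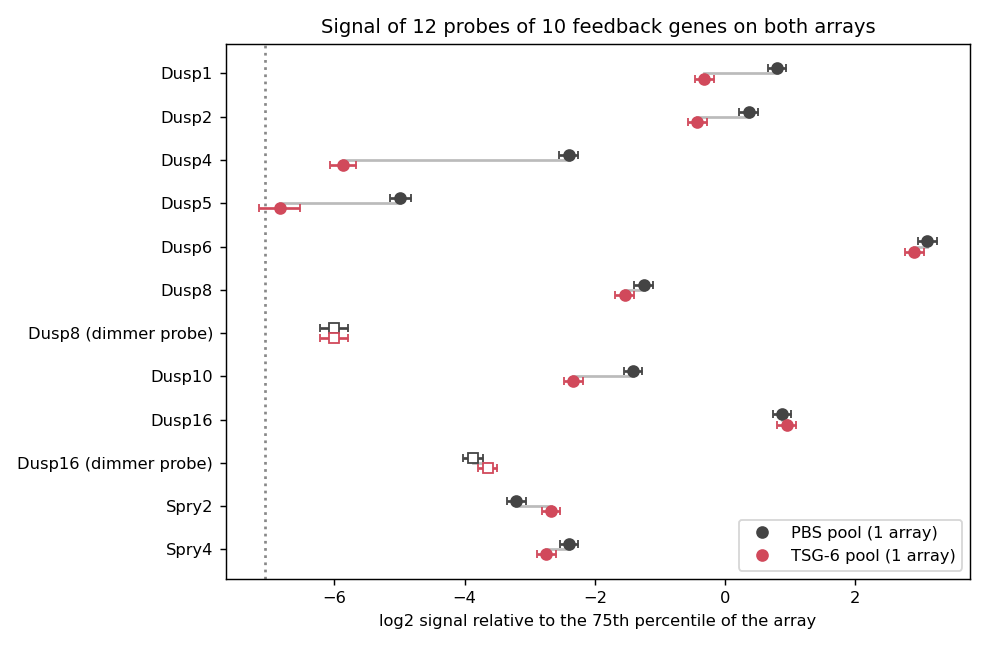
Level of each of the 12 probes on the PBS array (grey) and the TSG-6 array (red), as log2 signal relative to the 75th percentile of the array; bars are the scanner software's error of the spot, filled points the probe used for the gene, open squares the dimmer probe of Dusp8 and Dusp16, and the dotted line the lowest level called well above background on the TSG-6 array. The widest gap is that of Dusp4, from -2.40 to -5.87, and the TSG-6 level of Dusp5 sits beside the dotted line.

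Dusp6, which encodes MKP-3, the cytoplasmic phosphatase that holds and dephosphorylates ERK, differed little. Its signal was 27107 ± 2711 in the PBS pool and 18510 ± 1851 in the TSG-6 pool, in the brightest of the 5 level groups. The scaled difference of -0.20 ± 0.20 was no larger than its software error, and it turned to 0.09 with the percentile of unflagged spots. Dusp6 is commonly read as a transcript that follows ERK activity, as are Dusp4 and Spry4, and the 3 were not alike here: Dusp4 was 11.1-fold lower, Spry4 1.27-fold lower and Dusp6 1.15-fold lower.

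The phosphatases of the stress kinases were close to the PBS pool or moderately lower, with 0 of 3 past 2-fold. Dusp10 encodes MKP-5, which acts on JNK and p38. It had a signal of 1185 ± 119 in the PBS pool and of 491 ± 49.4 in the TSG-6 pool, and was 1.89-fold lower (-0.92 ± 0.20 on the log2 scale). Dusp10 lay just short of the size rule and crossed it with normexp correction (-1.03), median scaling (-1.03) and spike-in scaling (-1.24).

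Dusp8 encodes a phosphatase of JNK and p38 known mainly from brain, heart and muscle. Its brighter probe gave 1326 ± 133 in the PBS pool and 852 ± 85.3 in the TSG-6 pool, a log2 difference of -0.29 ± 0.20. Its dimmer probe gave 49.1 ± 7.24 and 38.5 ± 5.72, which after scaling left a difference of 0.00. The gap between its probes was thus about as large as their errors.

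Dusp16 encodes MKP-7, a JNK phosphatase that shuttles between nucleus and cytoplasm. Its brighter probe gave 5788 ± 579 in the PBS pool and 4775 ± 477 in the TSG-6 pool, a difference of 0.07 ± 0.20, and its dimmer probe gave 216 ± 22.2 and 198 ± 20.3, a difference of 0.23 ± 0.21. Both probes lay above 0 by about their error or less, and the direction of the brighter one turned with median scaling (-0.04) and spike-in scaling (-0.25). At 49.7% of measured genes at or below it, Dusp16 sat in the middle of the array.

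The 2 Sprouty genes lay on opposite sides of 0 and neither passed 2-fold. Spry2 encodes an inhibitor of Ras and ERK signalling that is itself phosphorylated after growth factor stimulation. Its signal was 343 ± 34.7 in the PBS pool and 388 ± 39.1 in the TSG-6 pool, so that it was the only one of the 12 probes whose unscaled signal was higher in the TSG-6 pool. The scaled value was 1.44-fold higher (0.53 ± 0.21), with 87.4% of measured genes at or below it, and it stayed above 0 in all 12 alternative settings, from 0.21 to 0.82.

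Spry4 encodes a Sprouty protein that inhibits Raf activation and is commonly induced by ERK. It gave 599.9 ± 60.2 in the PBS pool and 369 ± 37.1 in the TSG-6 pool, or 1.27-fold lower (-0.35 ± 0.21). It stayed below 0 in all 12 alternative settings, from -0.67 to -0.06. Both Sprouty differences were under 3 times their software errors, at 2.57 for Spry2 and 1.70 for Spry4.

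**Figure D2:**
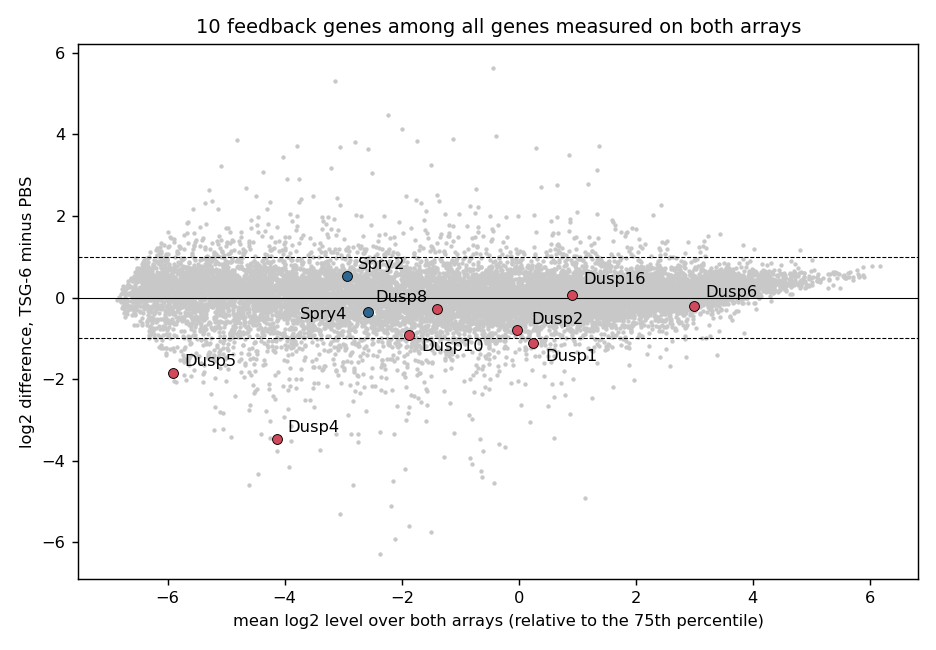
Log2 difference (TSG-6 minus PBS) against mean log2 level for the 15147 genes measured on both arrays (grey), with the phosphatase genes in red and the Sprouty genes in blue; dashed lines mark 2-fold. Dusp4, Dusp5 and Dusp1 lie under the lower line, and Dusp6 and Dusp16 lie within the bulk of genes of like level.

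The family holds 2 further MAP kinase phosphatases. Dusp9, which encodes MKP-4, a cytoplasmic ERK phosphatase, gave 168 ± 17.6 in the PBS pool and 39.7 ± 5.74 in the TSG-6 pool and was 3.32-fold lower, though with normexp correction its log2 difference was -0.68. Dusp7, its cytoplasmic relative, gave 1387 ± 139 and 936 ± 93.7, a difference of -0.22. Over all 10 MAP kinase phosphatases, 8 of them members, 4 were at least 2-fold lower and 9 lay below 0. Of the 15147 measured genes, 4.29% were at least 2-fold lower and 6442 lay below 0. Cytoplasmic ERK phosphatases were not alike: Dusp9 was past 2-fold, while Dusp6 and Dusp7 were near -0.2.

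Of the other Sprouty and Spred genes, 2 of 5 were measured. Spred1, an inhibitor of Raf activation, was 1.74-fold lower and Spred2 1.16-fold higher. Spry3 and Spred3 were not well above background on either array, and Spry1 had only spots with an outlier flag. Among 15 atypical dual-specificity phosphatases, most of which do not act on MAP kinases, 11 were measured, with a median of -0.02. Of these, 2 were at least 2-fold lower, Dusp13 (2.96-fold, its 2 probes from -4.17 to -1.56) and Dusp18 (2.85-fold, but -0.93 with normexp correction), and the bright Dusp3 differed by 0.00. Among 21 other negative regulators of receptor and MAP kinase signalling, 19 were measured, with a median of -0.14. Ptpn5, a tyrosine phosphatase of MAP kinases known from neurons, was 2.32-fold lower, but dim in the TSG-6 pool and at -0.37 with normexp correction.

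The MAP kinase genes, among them those of the kinases that these phosphatases act on, lay within 2-fold of the PBS pool where measured. Of 14 MAP kinases 12 were measured, 0 passed 2-fold in either direction, and the median was -0.16. Mapk3, which encodes ERK1, differed by -0.25, Mapk8, which encodes JNK1, by 0.31, and the p38 gene Mapk14 by -0.36. The 2 probes of Mapk14 ran from -0.36 to 0.58. The list as a whole ran from Mapk7 at -0.77 to Mapk13 at 0.59. Upstream kinases (18 of 20 measured, median 0.13) and MAP kinase-activated kinases (10 of 10, median -0.15) also had 0 genes past 2-fold. Of Ras proteins and adaptors, 17 of 18 were measured with a median of -0.03. Only Mras, a Ras-related protein, was at least 2-fold lower, by 2.07-fold with 1 probe, while its other probe differed by -0.09. The genes were read as RNA, and the phosphorylation of the kinases was not measured.

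Of 20 transcripts grouped here as output of the ERK pathway, apart from the members Dusp4, Dusp6 and Spry4, 16 were measured on both arrays. Of these, 12 lay below 0 and 4 above, where 6442 of all 15147 measured genes lay below 0. By 2-fold or more, 6 were lower and 0 higher, where 4.29% of all measured genes were lower by that size. The list median was -0.76, against 0.08 over all genes. The list was chosen with earlier results of these arrays known, so that its counts and median only describe it. Hmga2, a chromatin protein of growing and fetal cells, was 7.33-fold lower, with a signal of 4712 ± 471 in the PBS pool and 504 ± 50.6 in the TSG-6 pool. Etv4, an ETS factor downstream of growth factor signalling, was 5.52-fold lower, with signals of 2255 ± 226 and 321 ± 32.3. The immediate early gene Ier3 was 4.72-fold lower, the small Maf factor Maff 3.36-fold and the AP-1 gene Fos 2.10-fold. Plaur, the urokinase receptor, gave 4480 ± 448 in the PBS pool and 879 ± 88.1 in the TSG-6 pool.

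A further 3 of the 20 were well above background on the PBS array alone. For their folds the TSG-6 level was taken as the lowest level called well above background there, or the probe's own level where that was higher. These folds are rough, since a signal not well above background sets no strict bound. Fosl1, which encodes the AP-1 protein FRA1, was 27.6-fold lower by this rule, with signals of 653 ± 65.6 in the PBS pool and 18.3 ± 4.76 in the TSG-6 pool. The EGF receptor ligand Areg (620.1 ± 62.2 in PBS, 19.9 ± 4.54 in TSG-6) was 24.5-fold lower at its own level. The cytokine Lif (51.4 ± 7.51 in PBS, 19.2 ± 4.70 in TSG-6) was 2.10-fold lower at its own level. Lif was dim on both arrays, and its fold is not counted as past 2-fold. The 4 genes of the list above 0 were Egr1, an immediate early factor, at 0.56, Etv1 at 0.32, the receptor gene Epha4 at 0.24 and Phlda1 at 0.13. Etv5, the relative of Etv4, lay near the median of the list at -0.74. Epha2 was just short of 2-fold lower. Ccnd1 had only flagged spots. Over the 9 pathway lists, 11 of 107 measured genes were past 2-fold, where 7.23% of all measured genes were. Of the 11, 6 stayed past it in each alternative in which they were measured: Dusp13, Etv4, Hmga2, Ier3, Maff and Plaur.

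**Figure D3:**
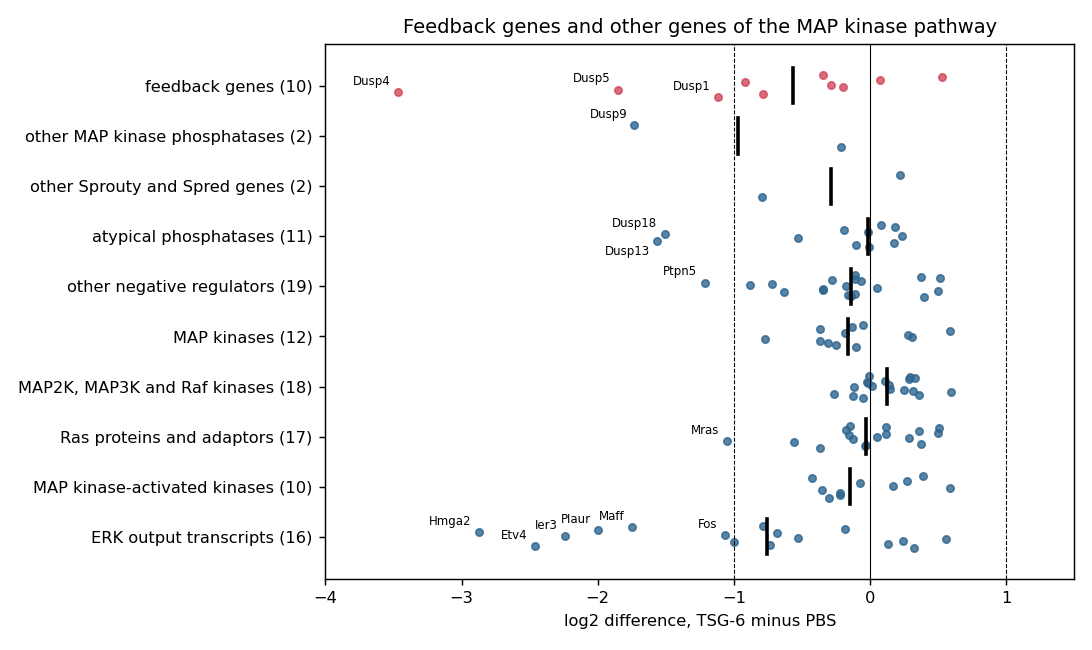
Log2 difference (TSG-6 minus PBS) of each gene measured on both arrays, for the feedback genes (red) and for 9 lists of other pathway genes (blue), with the number measured in brackets; black bars are medians, dashed lines mark 2-fold, and genes past it are named. The ERK output transcripts have a median of -0.76, and the lists of kinases have medians between -0.16 and 0.13.

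Cell type markers were read beside these values, since several of the feedback genes are expressed in immune and mesenchymal cells. Hepatocyte markers were bright on both arrays, 6 of 8 measured and all 6 above 0. Their summed level was 106 in the PBS pool and 152 in the TSG-6 pool, in units of the 75th percentile. Before scaling, Alb (62503 in PBS, 63130 in TSG-6), Apoa1 (59820, 60228) and Tat (50147, 48468) were nearly equal, so their place above 0 depends on the scaling. Cyp2e1 (34030, 60675), Serpina1a and Ass1 were higher in the TSG-6 pool before scaling too. Markers were not read under the other settings. Of the markers of stellate cells and myofibroblasts, 6 of 7 were measured and all 6 lay below 0. Past 2-fold were 2 of them (Acta2, 5.55-fold lower, and Des, 2.35-fold lower). Their summed level was 27.9 in the PBS pool and 17.5 in the TSG-6 pool. Cholangiocyte markers, 3 of 5 measured, summed to 15.5 and 9.25, and most of that gap was Spp1, at -0.82, while Krt19 and Krt7 differed by -0.29 and -0.02. The sums for macrophages, with 6 of 8 measured, were 46.9 and 46.8. Itgax alone was past 2-fold (2.70-fold lower), Trem2 was 1.76-fold lower, and 3 of the 6 lay above 0. T and NK cell markers, with 7 of 8 measured, summed to 5.49 and 5.35, B and plasma cell markers, with 5 of 6, to 4.15 and 4.61, and endothelial markers, with 6 of 6, to 16.2 and 18.5. Neutrophil markers, with 6 of 7 measured, summed to 29.7 and 42.7, with Mpo and Elane past 2-fold higher. The brighter S100a8, Csf3r and S100a9 differed by 0.85, 0.44 and 0.18, and Cxcr2 by -0.19. Some markers differed little, such as Krt7 and, at -0.10 each, Cd3g and Cd79a. The part of any shift in cell types in the values of the feedback genes was not tested.

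Scaling by another constant moved all genes together, while normexp background correction moved the dim Dusp4 and Dusp5 more than any scaling did. The median over all measured genes was 0.08 as reported, and it was 0.37 with the percentile of unflagged spots and -0.25 with spike-in scaling. Relative to the median of all genes, the median of the 10 feedback genes was -0.64 under each of these settings. Dusp4 at -3.54, Dusp5 at -1.93 and Dusp1 at -1.19 were past 2-fold relative to that median, and Dusp10 was just short of it.

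**Figure D4:**
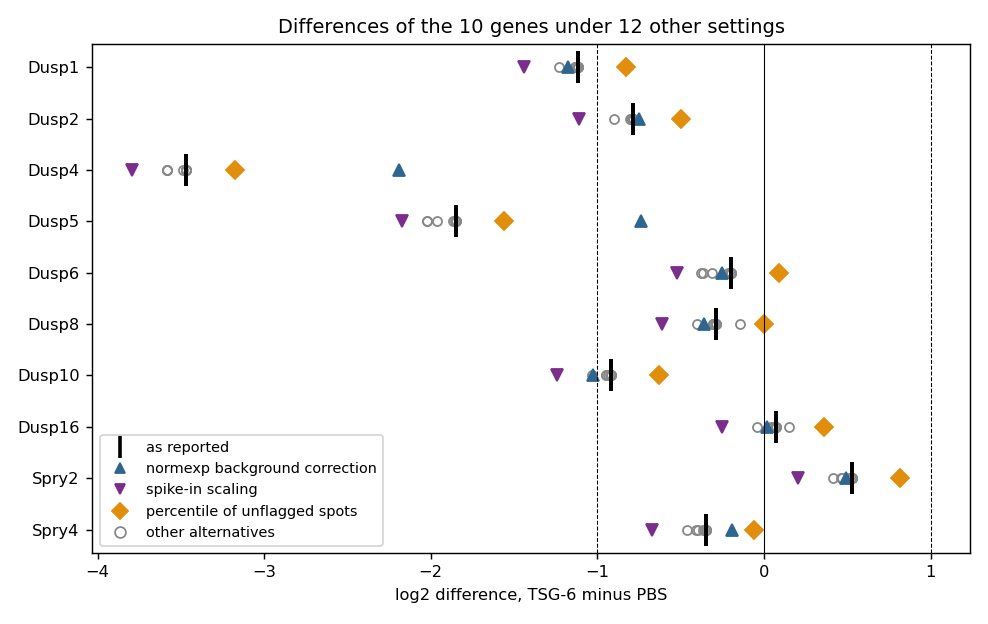
Log2 difference (TSG-6 minus PBS) of each feedback gene as reported (black bar), with normexp background correction (triangle), spike-in scaling (inverted triangle), the percentile of unflagged spots (diamond) and the other alternatives (circles); dashed lines mark 2-fold. Dusp4 stays left of the lower line throughout, from -3.79 to -2.19, and Dusp5 crosses it only with normexp, at -0.74.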

How the data were processed

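Pools of liver RNA, 1 per group and each from 3 mice, were labelled with Cy3 from 0.2 ug and measured on 1 one-colour array each, per the labels. Spot intensity in the deposited scanner files is given as a linear signal, background-subtracted and detrended within the array by Agilent Feature Extraction, version 11.5.1.1 per the file headers and 10.7 per the submitters' processing notes. The deposited value table holds log2 values; its columns differed from the log2 processed signals by 1 constant per array (within 0.001), and their medians were -3.90 (PBS) and -3.77 (TSG-6).

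Levels were log2 processed signals minus the 75th percentile over 59305 non-control spots. Spots with an outlier flag (3.40% for PBS, 6.44% for TSG-6) were then left out. Probes were kept where 50% or more of the spots were well above background. Replicate spots were averaged; over 327 probes printed several times the pooled SD of the log2 difference was 0.13. Where a gene had several probes, the one detected on most arrays, and then the brightest on average, stood for it. RefSeq accessions (GRCm38.p6) named 26756 of 55681 probes. The array was designed on mm9, per the file headers, so coordinates are given only for the RefSeq promoters. Errors of differences were propagated from both spots. The number of arrays limits the precision.

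The members and all gene and marker lists were chosen with earlier results of these data known. Named genes were all members and, in each list, those past 2-fold (at most 4 per direction) and 1 or 2 nearest the median; any other gene was named after its values were seen. Python 3.11.15, numpy 2.4.6, pandas 2.3.3 and limma 3.58.1 (normexp, quantile and loess alternatives) were used, and the steps were tested on simulated data.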

Additional observations from a re-analysis of the deposited data

How the results depend on the processing

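With 12 alternatives, each changing 1 choice, Dusp4 was at least 2-fold lower in 12 of 12 and Dusp1 in 11 of 12. Dusp5 was so in 10 of the 11 in which it was measured, and 0 of the 10 genes was at least 2-fold higher in any. For a gene with 1 unflagged probe, settings on flagged spots, dim probes or probe averaging could not change the value, only leave the gene out. Such tallies, here and above, therefore rest on fewer settings than they count. The count of feedback genes at least 2-fold lower was 3 as reported and 5 with spike-in scaling, where Dusp2 and Dusp10 joined; over all measured genes the share at least 2-fold lower was 4.29% as reported and 8.34% with spike-in scaling. The count was 4 with median scaling (Dusp10 joined, 5.37% of all genes) and 3 with normexp (Dusp10 in place of Dusp5, 2.65%). It was 2 with the percentile of unflagged spots (2.48%) and with the stricter filter (4.11%). Their median was -0.89 with spike-in scaling, -0.28 with the percentile of unflagged spots and -0.35 with the stricter filter, which left out Dusp5. The count of pathway list genes past 2-fold, 11 of 107 measured as reported, was 7 with normexp and 19 with spike-in scaling. Over all measured genes 1095 (7.23%) were past 2-fold, 692 with normexp, 1473 with spike-in scaling and 1861 with no filter on dim probes. Of these calls 40.6% were higher as reported, 73.0% with the percentile of unflagged spots, 14.3% with spike-in scaling and 29.4% with median scaling. For single feedback genes, 91 values moved by less than the SD between replicate spots and 28 by more. Many of the 91 were values that their setting could not change. No called gene changed direction. Dim signals, those of Dusp5 and the TSG-6 signal of Dusp4, limit the size of their folds. No paired analysis was possible because each group has 1 array, and for the same reason no replicate could be left out.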
